A study of Mus musculus with 2 samples.

Results

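MiR-223, miR-142 and miR-150 are microRNAs (miRNAs) of white blood cells, and the 6 mature arms of their 3 hairpins were followed here in mouse knee cartilage. They were chosen by name, with earlier results of these data known, as mmu-miR-223-3p, mmu-miR-223-5p, mmu-miR-142-3p, mmu-miR-142-5p, mmu-miR-150-5p and mmu-miR-150-3p (mmu for mouse, left out below), out of 1247 mouse miRNAs on the array, and the rule itself uses names and no measured value. They had 15 probes and 240 spots on each array. The study used 2 one-colour miRNA arrays of cartilage from the knee joints of males at 8 weeks of age, 1 of a control sample with the genotype label wildtype and 1 of a Col2a1Tsc1KO sample with the genotype label Col2a1; Tsc1 KO. The series' design text describes a Tsc1 deletion specific to Col2a1, the collagen gene of chondrocytes. Tsc1 restrains the growth kinase complex mTORC1. The Cre line and the number of mice behind each sample are not given in the sources used here. Each group is 1 array, so no difference below has a replicate check and none has a p-value.

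A miRNA is cut from a hairpin RNA into a 5p arm and a 3p arm, one of which is usually kept in larger amount, and bases 2 to 8 of the kept arm, the seed, pair with target mRNAs. MiR-223 is made mainly by myeloid cells such as neutrophils and monocytes and restrains granulocyte production. MiR-142 is made by nearly all blood cell lineages and serves as a general mark of them, while miR-150 belongs to mature B, T and natural killer lymphocytes, where it lowers the transcription factor MYB. Healthy articular cartilage is built by chondrocytes and has no blood vessels of its own.

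Mature sequences of 5 of the 6 arms were found in RefSeq (GRCm38.p6), where the arms of miR-142 are listed as miR-142a. They are printed 5′ to 3′ with the seed in capitals, because the seed decides which mRNAs an arm can address. The probes bind a stretch that ends at the last base of the arm, and those printed below reach into the seed.
miR-223-3p: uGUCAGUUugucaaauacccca
miR-223-5p: cGUGUAUUugacaagcugaguug
miR-142-3p: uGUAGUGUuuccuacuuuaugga
miR-142-5p: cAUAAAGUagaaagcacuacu
miR-150-3p: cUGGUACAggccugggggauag
No seed was shared between these arms, and each was held by 1 of the 1738 mature miRNAs in the RefSeq table. MiR-223-3p lies at chrX:96242884-96242905 and miR-223-5p at chrX:96242842-96242864, both on the plus strand in Mir223, which overlaps the gene F630028O10Rik. MiR-142-3p lies at chr11:87756903-87756925 and miR-142-5p at chr11:87756867-87756887, on the plus strand in Mir142. The hairpin Mir142b overlaps Mir142 on the minus strand. MiR-150-3p lies at chr7:45121798-45121819 on the plus strand in Mir150.

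The probes of the 3 brightest arms are DNA of the opposite sense, printed 5′ to 3′. The probes of an arm differ only in length, and capitals mark the base that the longer probe has in addition.
miR-223-3p, 20 bases: tggggtatttgacaaactga
miR-223-3p, 21 bases: tggggtatttgacaaactgaC
miR-142-3p, 22 bases: tccataaagtaggaaacactac
miR-142-3p, 23 bases: tccataaagtaggaaacactacA
miR-142-5p, 18 bases: agtagtgctttctacttt
miR-142-5p, 19 bases: agtagtgctttctactttA
Each of these 6 probes was the exact complement of a stretch in 1 mature miRNA of the table, its own. The mature sequence of miR-150-5p was not found there, so its probes could not be checked in this way. The probes of miR-223-3p pair with bases 3 to 22 and 2 to 22 of 22, and those of miR-142-3p with bases 2 to 23 and 1 to 23 of 23. The probes of 1 arm share their target and their array, so they are repeats of a measurement and not replicates of the condition.

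The share of miRNA spots that the scanner software marked well above background was 19.6% for control and 21.1% for Col2a1Tsc1KO, and saturation was marked on 0 of them. The median over negative-control spots was 5.02 for control and 4.93 for Col2a1Tsc1KO. The intensity of a spot is background-subtracted and in arbitrary units. Scaling set the 75th percentile of the 476 probes that were well above background on both arrays to 1 common value, which lowers every log2 difference, Col2a1Tsc1KO minus control, by 0.41. The 2 arrays lay on 1 slide, and position on the slide and group cannot be told apart. All 4 miRNAs of the cartilage list (both arms of miR-140 and of miR-455) were well above background on both arrays.

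Of the 6 arms, 4 were well above background on both arrays. The myeloid miR-223-3p and both arms of the general blood cell miRNA miR-142 were lower on the Col2a1Tsc1KO array, and the lymphocyte miR-150-5p was higher, except with the scanner software's total gene signal. The log2 difference was -1.17 ± 0.01 (SE over spots, technical error only) for miR-223-3p, -0.95 ± 0.03 for miR-142-3p, -0.59 ± 0.03 for miR-142-5p and 0.64 ± 0.06 for miR-150-5p. As folds, miR-223-3p was 2.25-fold, miR-142-3p 1.94-fold and miR-142-5p 1.51-fold lower, and miR-150-5p 1.55-fold higher. This last value depends on the settings: on the log2 scale it was 1.05 with no scaling and 0.31 after normexp with quantile normalization. With dim probes kept at a floor it was 0.057. There the second, dim probe of miR-150-5p enters at the floor and not at its own intensities. Under that setting the median over all 1247 miRNAs was -0.51. In RNA from a whole tissue, fewer cells of a type and less RNA per cell cannot be told apart. Of the 4 measured arms, 1 (miR-223-3p) was at least 2-fold lower and 0 were at least 2-fold higher. Over all 257 miRNAs well above background on both arrays, 17.5% were at least 2-fold lower and 15.6% at least 2-fold higher. By any amount, 3 of the 4 arms were lower and 1 was higher, against 59.1% lower and 40.9% higher among all 257, and with 4 arms these shares are not far apart. The median log2 difference was -0.77 over the 4 arms and -0.22 over the 257 miRNAs.

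MiR-223-3p was the brightest of the arms on both arrays. With the 20-base probe, its intensities before scaling ran from 4420 over a median of 4570 to 4790 on 15 usable spots of the control array. On 17 usable spots of the Col2a1Tsc1KO array they ran from 2380 over 2530 to 2810. With the 21-base probe they ran from 10700 over 10900 to 11500 on 18 control spots and from 6590 over 6890 to 7360 on 17 Col2a1Tsc1KO spots. Neither probe's spots overlapped between the arrays, before or after scaling. Where a spot was usable at the same place of both arrays, the Col2a1Tsc1KO spot was the lower one in 14 of 14 pairs for the 20-base probe and in 16 of 16 for the 21-base probe, also before scaling. After scaling the log2 difference was -1.26 ± 0.02 for the 20-base and -1.08 ± 0.01 for the 21-base probe. The probes thus gave 1 direction and sizes that differ by more than their spot errors.

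**Figure D1:**
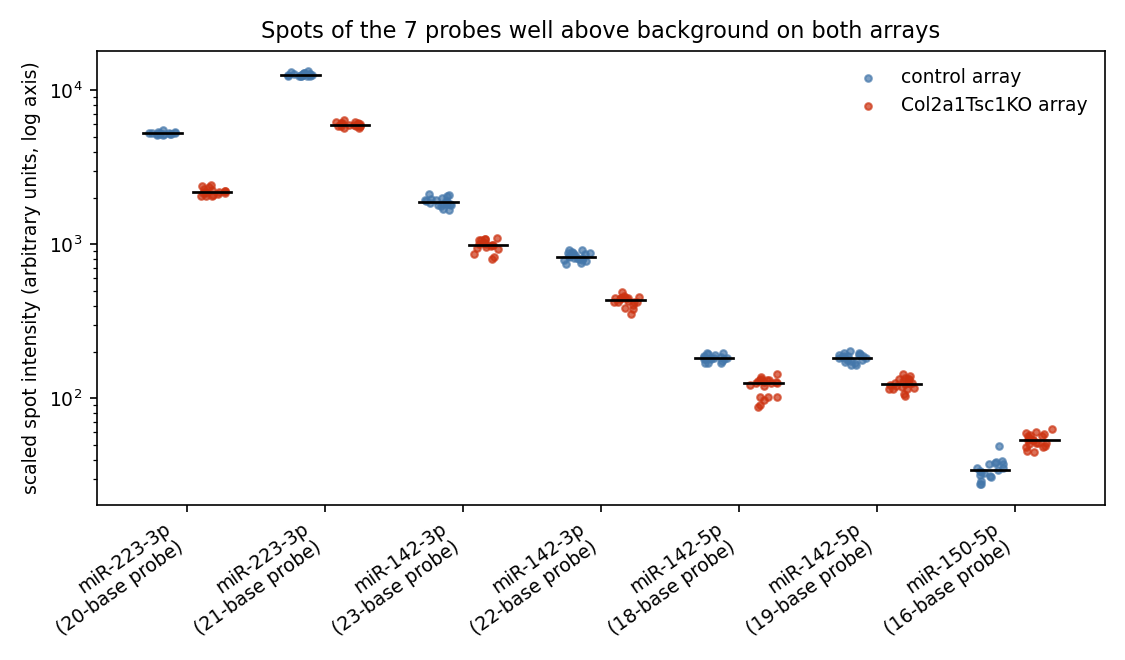
Scaled intensity (arbitrary units, log axis) of each usable spot of the 7 probes that were well above background on both arrays, control in blue and Col2a1Tsc1KO in red, with the median as a black line. The spots of miR-223-3p and of both miR-142 arms lie lower on the Col2a1Tsc1KO array with no overlap, and those of miR-150-5p lie higher with some overlap.

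MiR-142-3p, the brighter arm of its hairpin, had intensities from 1450 over a median of 1630 to 1840 on 19 control spots of the 23-base probe. On 18 Col2a1Tsc1KO spots of that probe they ran from 928 over 1145 to 1270. The 22-base probe gave 648 over 722.5 to 797 on 20 control spots and 405 over 502 to 563 on 18 Col2a1Tsc1KO spots. All usable Col2a1Tsc1KO spots were below all usable control spots with either probe, before scaling as well. The log2 differences after scaling were -0.94 ± 0.04 for the 23-base and -0.96 ± 0.03 for the 22-base probe, a gap within the spot errors. Pairs of spots at the same place were lower on the Col2a1Tsc1KO array in 17 of 17 and 18 of 18 cases.

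MiR-142-5p, which is cut from the other side of that hairpin, was dimmer and differed less. With the 18-base probe its control intensities ran from 147 over 158 to 171 on 18 spots, and its Col2a1Tsc1KO intensities from 102 over 146 to 166 on 20 spots. The 19-base probe gave 143 over 159.5 to 175 on the control and 120 over 143.5 to 166 on the Col2a1Tsc1KO array, on 20 spots each. Before scaling these ranges overlap. After scaling they do not, with log2 differences of -0.62 ± 0.05 and -0.57 ± 0.03, so the size of this difference rests largely on the scaling. Before scaling 16 of 18 pairs of spots were lower on the Col2a1Tsc1KO array with the 18-base probe and 18 of 20 with the 19-base probe. The spots of the 18-base probe varied more on the Col2a1Tsc1KO array, with a coefficient of variation of 13.7% against 4.55% on the control array.

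MiR-150-5p was measured by 1 of its 2 probes. On the 16-base probe the control intensities ran from 24.1 over a median of 29.55 to 42.8 on 18 spots, and the Col2a1Tsc1KO intensities from 52.0 over 61.7 to 72.7 on 20 spots. These ranges do not overlap before scaling, and after scaling they do, from 27.8 to 49.3 on the control and from 45.1 to 63.1 on the Col2a1Tsc1KO array. All 18 pairs of spots at the same place were higher on the Col2a1Tsc1KO array, before and after scaling. The 15-base probe was well above background on 0 of 20 usable control spots and 3 of 19 usable Col2a1Tsc1KO spots. Its intensities before scaling ran from 1.17 over 6.64 to 14.6 on the control and from 13.7 over 18.4 to 22.2 on the Col2a1Tsc1KO array. No fold was taken from it, and its spots too were mostly brighter on the Col2a1Tsc1KO array. Its ranges overlap between 13.7 and 14.6 before scaling and between 11.9 and 16.8 after scaling. Of the 4 measured arms miR-150-5p was the dimmest and had the widest spot error.

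The other arms, miR-223-5p and miR-150-3p, are known as the less abundant arms of their hairpins, and both stayed at background. MiR-223-5p was well above background on 0 of 39 usable spots of each array, and its 3 probes had median intensities between -8.22 and -1.08 on the control and between -7.23 and -1.85 on the Col2a1Tsc1KO array. MiR-150-3p was so on 0 of 37 control and 0 of 39 Col2a1Tsc1KO spots, and its 4 probes, of 10 to 13 bases, had medians between -5.16 and 6.08 and between -3.38 and 2.05. A level this low was not detectable with these probes, and no fold was taken.

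**Figure D2:**
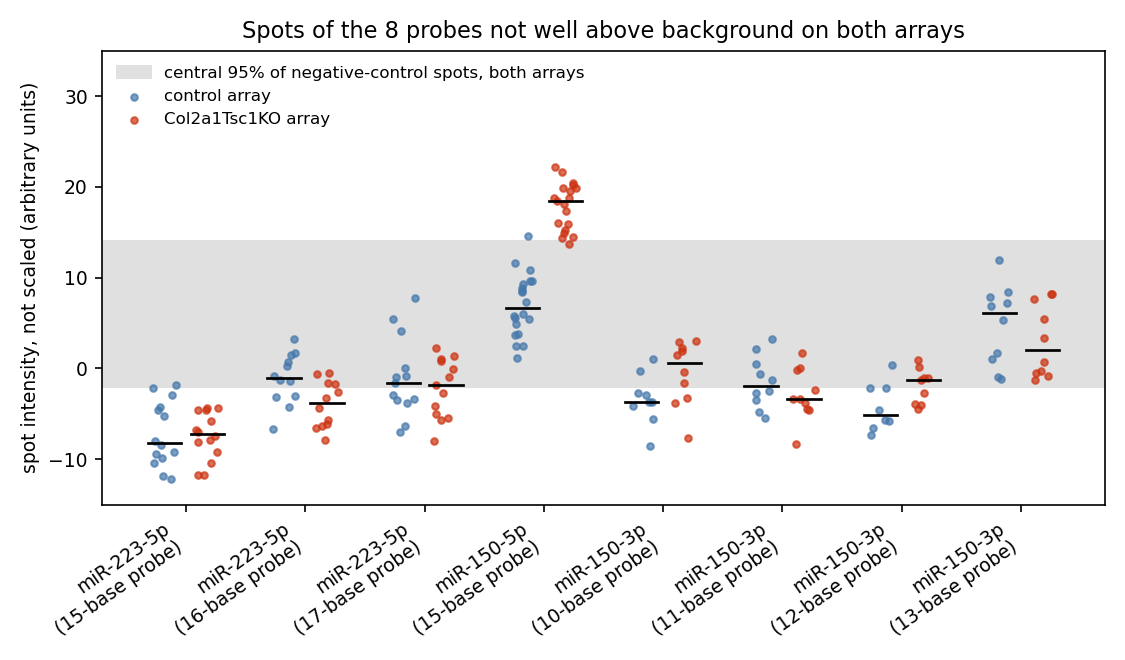
Intensity before scaling (arbitrary units) of each usable spot of the 8 probes not well above background on both arrays, with medians as black lines and the central 95% of negative-control spots as a grey band. The probes of miR-223-5p and miR-150-3p lie within or below the band on both arrays, and the 15-base probe of miR-150-5p lies mostly above it on the Col2a1Tsc1KO array alone.

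Gaps between the arms do not depend on a scaling by 1 factor per array, because the factor cancels. The log2 difference of miR-142-3p lay below that of miR-142-5p by a gap of -0.36 ± 0.04, although both arms come from 1 hairpin. That of miR-223-3p lay below that of miR-142-3p by a gap of -0.22 ± 0.03 and below that of miR-142-5p by -0.57 ± 0.03. MiR-150-5p stood above miR-223-3p by 1.80 ± 0.06, which is a 3.49-fold shift of one against the other, and above miR-142-3p by 1.59 ± 0.06 and miR-142-5p by 1.23 ± 0.06. These errors cover spots within the arrays, and no biological spread could be set against the gaps. Between the miR-142 arms the gap was -0.75 with quantile normalization, -0.77 after normexp with quantile normalization and -0.65 in the authors' deposited table. It shifted by no more than 1 SD between spots in the other 12 alternatives. For miR-223-3p against miR-142-5p it was -0.92 with quantile normalization and -1.07 after normexp with quantile normalization. The gap of miR-150-5p against miR-142-5p was 0.61 after normexp, 0.64 with a floor for dim probes and 1.74 in the deposited table. Against miR-223-3p and miR-142-3p, miR-150-5p had gaps of 2.21 and 2.04 with quantile normalization and of 1.22 and 1.01 with the floor. In the authors' deposited table the gap of miR-150-5p was 2.384 against miR-223-3p and 2.390 against miR-142-3p, and with the software's total gene signal it was reversed, at -3.02 against miR-223-3p, -3.20 against miR-142-3p and -3.56 against miR-142-5p. When the spot grid was cut in 2 at its middle row, and then at its middle column, the log2 difference ran from -1.21 to -1.14 for miR-223-3p, from -0.98 to -0.94 for miR-142-3p, from -0.72 to -0.49 for miR-142-5p and from 0.59 to 0.72 for miR-150-5p.

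Among the 257 measured miRNAs, 31 had a lower log2 difference than miR-223-3p, 50 a lower one than miR-142-3p and 82 a lower one than miR-142-5p, while 54 had a higher one than miR-150-5p. Any scaling by 1 factor per array leaves these ranks as they are, and other settings do not. Those below miR-223-3p numbered 9 with quantile normalization and 1 after normexp with quantile normalization, which put that arm near the lower end, and those below miR-142-3p numbered 20 and 6. With the software's total gene signal 3 of 304 miRNAs lay below miR-150-5p. The miRNAs with the most similar difference, a likeness over 2 arrays only, were miR-574-3p at -1.17 ± 0.03, miR-146b-5p at -1.18 ± 0.03 and miR-714 at -1.16 ± 0.08 for miR-223-3p. For miR-142-3p they were miR-574-5p at -0.95 ± 0.02, miR-669n at -0.96 ± 0.04 and the muscle miRNA miR-1a-3p at -0.94 ± 0.02. For miR-142-5p they were miR-5130 at -0.59 ± 0.04, miR-5118 at -0.58 ± 0.03 and miR-6360 at -0.58 ± 0.02. For miR-150-5p they were let-7g-5p at 0.63 ± 0.01, miR-29a-3p at 0.62 ± 0.01 and let-7d-5p at 0.65 ± 0.01.

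**Figure D3:**
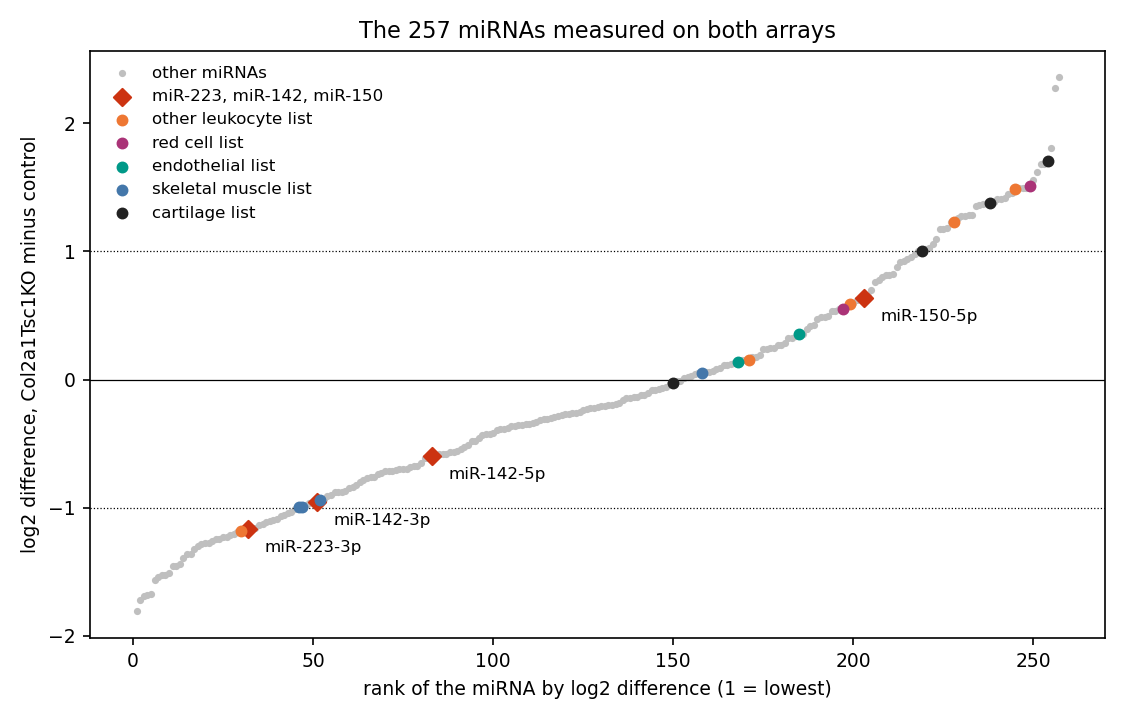
Log2 difference, Col2a1Tsc1KO minus control, of the 257 miRNAs measured on both arrays in rank order, with miR-223, miR-142 and miR-150 arms as red diamonds, lists of other cell types as coloured dots and dotted lines at 2-fold. MiR-223-3p and miR-142-3p lie beside 3 skeletal muscle miRNAs and miR-146b-5p, and miR-150-5p lies beside the red cell miR-451a and the leukocyte miR-342-3p. MiR-146a-5p, miR-181a-5p, miR-144-3p, both arms of miR-140 and miR-455-3p lie further up. The miR-126 arms, miR-155-5p and miR-206-3p are higher by less and lie below miR-150-5p.

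Other miRNAs known from leukocytes did not share 1 direction either. Of a list of 7, 5 were measured, and 4 of these were higher and 1 lower on the Col2a1Tsc1KO array, with 2 at least 2-fold higher, 1 at least 2-fold lower and a median of 0.59. With dim probes kept at a floor, a setting under which 1141 of all 1247 miRNAs were lower, miR-155-5p and the median both stood at -0.18. MiR-146a-5p, which dampens Toll-like receptor signalling, stood at 1.49 ± 0.04. Its relative miR-146b-5p stood at -1.18 ± 0.03. MiR-181a-5p, which tunes T cell receptor sensitivity, was at 1.23 ± 0.02, miR-342-3p at 0.59 ± 0.02 and miR-155-5p, induced in activated lymphocytes and macrophages, at 0.15 ± 0.06. Neither array showed miR-155-3p or miR-342-5p well above background. The summed scaled intensity of the measured list was 452 on the control and 718 on the Col2a1Tsc1KO array, against 9633 and 4454 for the 4 arms of miR-223, miR-142 and miR-150. Most of the latter sums is 1 arm, miR-223-3p, with 8163 and 3632, while miR-150-5p went the other way, from 34.3 to 53.3.

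Markers of other cell types moved beside these arms, and their part in the differences was not tested. Among red cell miRNAs, miR-451a stood at 0.55 ± 0.01 and miR-144-3p at 1.51 ± 0.04, both higher on the Col2a1Tsc1KO array. For miR-451a this depends on the settings. It stood at -0.018 with quantile normalization, 0.0082 after normexp with quantile normalization and 0.095 in the authors' deposited table. MiR-451a and miR-144-3p were the 2 of the 5 listed that were measured on both arrays. Of the other 3, only the Col2a1Tsc1KO array showed miR-144-5p well above background, miR-486-3p was not so on any array, and miR-486-5p was not analysed here under that name. MiR-3107-5p, known as a miRNA with the same mature sequence as miR-486-5p (background that was not checked against sequences here), stood at 0.06 ± 0.03, and it was named after its value was seen. The summed scaled intensity of the measured red cell miRNAs was 2340 on the control and 3472 on the Col2a1Tsc1KO array. Most of these sums is miR-451a, with 2308 and 3380. The endothelial arms miR-126-3p and miR-126-5p were at 0.35 ± 0.01 and 0.14 ± 0.04, with sums of 1555 and 1977. These directions depend on the settings. MiR-126-3p was at -0.15 with quantile normalization, -0.10 after normexp with quantile normalization and 0 in the authors' deposited table. MiR-126-5p was at -0.19 with a floor for dim probes. Of the 4 skeletal muscle miRNAs, miR-1a-3p at -0.94 ± 0.02, miR-133a-3p at -0.99 ± 0.02 and miR-133b-3p at -0.996 ± 0.02 were lower by about as much as miR-142-3p, while miR-206-3p, which was dim, stood at 0.05 ± 0.08. The summed level of this list was 1410 on the control and 737 on the Col2a1Tsc1KO array. In the cartilage list miR-140-5p, miR-140-3p and miR-455-3p were at 1.38 ± 0.01, 1.01 ± 0.01 and 1.71 ± 0.05 and miR-455-5p at -0.03 ± 0.14, with sums of 2322 and 5268.

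The direction of the 3 lower arms held under all 15 alternative settings, and their size did not. MiR-223-3p ran from -1.37 after normexp and quantile normalization to -0.63 with the scanner software's total gene signal, miR-142-3p from -1.21 to -0.45 and miR-142-5p from -0.61 to -0.090. MiR-150-5p ran from -3.65 to 1.18. With no scaling, miR-223-3p stood at -0.76 and was no longer 2-fold lower, and miR-150-5p stood at 1.05 and was more than 2-fold higher. The same change of scale moved the counts over all miRNAs from 45 lower and 40 higher to 13 lower and 59 higher. In the authors' deposited table of log2 values, the columns of which hold the same 337 highest values to within 1e-05, miR-223-3p read 12.62 for control and 11.42 for Col2a1Tsc1KO, a difference of -1.20. MiR-142-3p read 10.17 and 8.96 in the authors' deposited table, a difference of -1.21. MiR-142-5p read 7.17 and 6.61 there, a difference of -0.56, and miR-150-5p read 3.68 and 4.86, a difference of 1.18. MiR-223-5p and miR-150-3p stood at the floor of both columns in the authors' deposited table.

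MiR-150-5p changed direction under 1 setting, the software's total gene signal, where it stood at -3.65. That total was 414 for miR-150-5p on the control array, whereas the totals of its 2 probes sum to 14.5, an excess of 399.62. On the Col2a1Tsc1KO array the total of 31.4 equalled the sum of its probes, as did the totals of miR-223-3p, miR-142-3p and miR-142-5p on both arrays to within 0.01. The gene total exceeded the sum over probes by more than 1% for 82 of 327 detected miRNAs on the control and 92 of 348 on the Col2a1Tsc1KO array. With the sum over probes in place of the gene total, an alternative added after the data were seen, miR-150-5p stood at 0.89.

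**Figure D4:**
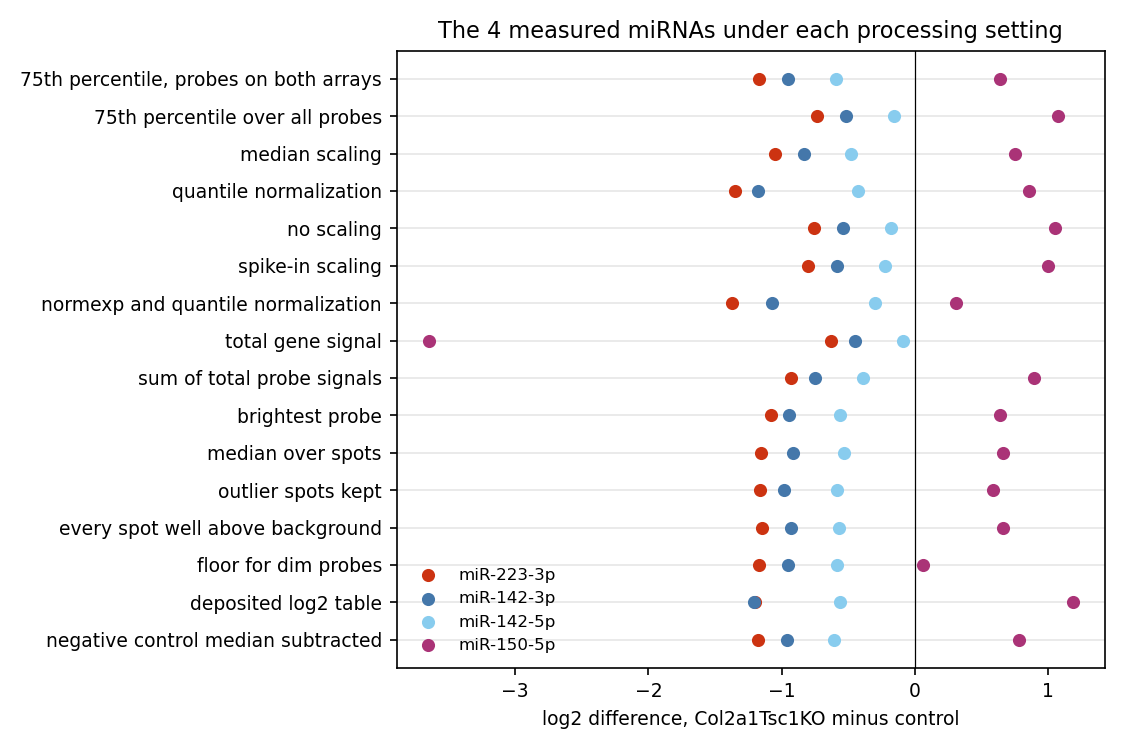
Log2 difference, Col2a1Tsc1KO minus control, of the 4 measured arms under each processing setting, the setting of the text in the top row. MiR-223-3p, miR-142-3p and miR-142-5p lie below 0 in each row, and miR-150-5p lies above 0 in each row but that of the total gene signal.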

How the data were processed

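The authors' scanner files, per the submitters' processing notes and the file headers, came from Agilent Feature Extraction 10.7 and hold an intensity per spot, background-subtracted with spatial detrending and not scaled between arrays. The authors also deposited a table of log2 values, with a making that is not stated in the sources used here. Its column medians, also its floors, were -3.26 for control and -3.32 for Col2a1Tsc1KO. It was used as an alternative.

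Spots marked as outliers were dropped, and a probe's value is the mean log2 intensity of the remaining spots. Over 50% of these had to be marked well above background for the probe to count as such. Arrays were scaled to the 75th percentile of 476 such probes, and a miRNA's difference is the mean over its probes. Spot errors are technical, and the number of arrays limits the precision. The normexp alternative used limma 3.58.1 (offset 50), the rest Python 3.11.15. The steps were tested on simulated data, a copy of the control array with known changes. It had no overall shift in brightness, so that run could not test how well the scaling removes one. Members, lists, tests and alternatives were chosen with earlier results of these data known, and 2 alternatives were added after seeing the files. Named were the 6 arms, the list members, and for each measured arm the 3 miRNAs nearest in log2 difference.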

Additional observations from a re-analysis of the deposited data

How the results depend on the processing

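No paired analysis was possible because each group has 1 array, and no array could be left out. Signs of miR-223-3p, miR-142-3p and miR-142-5p held under the 15 alternatives run, 2 of which (negative-control median subtracted, sum of total probe signals) were added after the files were examined. A value counts as moved when it shifts by over 1 SD between spots. In the order miR-223-3p, miR-142-3p, miR-142-5p and miR-150-5p, the log2 differences were -0.74, -0.52, -0.16 and 1.07 with scaling to the 75th percentile of every miRNA probe (all-probe scaling), -0.76, -0.54, -0.18 and 1.05 with no scaling, -0.80, -0.59, -0.23 and 1.001 with spike-in scaling, -0.63, -0.45, -0.090 and -3.65 with total gene signals, and -0.93, -0.75, -0.39 and 0.89 with summed probe totals. After normexp with quantile normalization, miR-223-3p stood at -1.37, miR-142-5p at -0.30 and miR-150-5p at 0.31. With quantile normalization and no normexp, miR-142-5p stood at -0.43 and miR-150-5p at 0.86. The part of the normexp offset in these values was not tested. MiR-223-3p stood at -1.05 with median scaling, -1.35 with quantile normalization and -1.08 on its brightest probe, and miR-142-3p at -1.18 with quantile normalization and -1.21 in the deposited table. MiR-150-5p stood at 1.18 in that table and at 0.057 with a floor for dim probes, which adds its dim probe at the floor and not at its own intensities.

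The gap of miR-150-5p turned to -3.02 against miR-223-3p, -3.20 against miR-142-3p and -3.56 against miR-142-5p with total gene signals, and that of miR-223-3p against miR-142-3p was 0.0063 in the deposited table. Counts at least 2-fold lower were 13 with all-probe scaling, 13 with no scaling, 14 with spike-ins, 9 after normexp and 24 with total gene signals; counts at least 2-fold higher were 15 after normexp and 80 with total gene signals. Relative to the text's setting the median of all miRNAs moved by 0.43 (all-probe), 0.41 (no scaling), 0.36 (spike-ins), 0.19 (quantile) and 0.18 (normexp), 0.51 with total gene signals, 0.21 with summed probe totals, 0.22 in the deposited table, 0.12 with median scaling and -0.30 with a floor.

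List medians, in the order other leukocyte, red cell, endothelial, muscle and cartilage, were 1.03, 1.46, 0.68, -0.53 and 1.62 with all-probe scaling, 1.004, 1.44, 0.66, -0.56 and 1.60 with no scaling, 0.96, 1.39, 0.61, -0.60 and 1.56 with spike-ins, 1.09, 1.53, 0.86, -0.43 and 1.43 with total gene signals, and 0.79, 1.23, 0.43, -0.72 and 1.39 with summed probe totals. After normexp the red cell, endothelial, muscle and cartilage medians were 0.36, 0.013, -0.66 and 0.71. With quantile normalization the red cell, endothelial and cartilage medians were 0.86, 0.092 and 0.77, and the red cell and cartilage medians were 0.87 and 0.89 in the deposited table. With a floor, under which 1141 of all 1247 miRNAs were lower, the other leukocyte, red cell and endothelial medians were -0.18, 0.14 and 0.083.

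Single miRNAs turned sign as follows, and the cause was not tested. MiR-455-5p stood at 0.41 (all-probe scaling), 0.090 (median), 0.21 (quantile), 0.38 (no scaling), 0.34 (spike-ins), 0.049 (normexp), 0.48 (total gene signals), 0.32 (summed probe totals), 0.20 (deposited table), 0.0042 (outlier spots kept) and 0.028 (negative control subtracted). MiR-451a was at -0.018 with quantile normalization, and miR-126-3p at -0.15 with it and -0.10 after normexp. MiR-206-3p was at -0.032 with total gene signals, -0.037 with medians over spots and -0.24 with a floor. MiR-155-5p and miR-126-5p were at -0.18 and -0.19 with a floor, and miR-714 at 0.64 with total gene signals. With any usable spot well above background as the filter, 4 arms were still measured. Arms near background, miR-150-5p on the control array above all, limit what these arrays can show.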
